A study of Drosophila melanogaster with 8 samples.

Results

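Vrp1 and 8 genes of the machinery that builds branched actin networks were followed through 8 RNA-seq libraries of cultured Drosophila melanogaster cells. The genes were listed by FlyBase symbol and are WASp, SCAR, Abi, Hem, Arp2, Arp3, Arpc1 and chic beside Vrp1. All 9 were found among the 13932 genes of each library's table, and all 9 passed the filter on low counts that left 8126 genes for testing. Vrp1 was chosen by its measured counts in wild-type cells with upd against control media, and the others as its partners, so the values of Vrp1 in that contrast are given as a description with no test. The question is whether its partners moved with it.

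The groups were wild-type cells with upd, wild-type cells in control media, Stat92E mutant cells with upd and Stat92E mutant cells in control media, with 2 libraries in each. Wild-type cells were S2R+, a macrophage-like line from embryos, and the mutant line was S2R+ carrying a CRISPR disruption of Stat92E. Treatment lasted 1 hour, and RNA was poly-A selected. Whether the mutant line is a single clone, and whether replicates are separate cultures, is not given in the sources used here, so a difference between the lines cannot be told apart from a difference between their founding cells, and p-values measure only the spread between these libraries.

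Branched actin grows when the Arp2/3 complex starts a new filament on the side of an old one. The complex needs an activator of the WASP family: WASp, which is bound by the verprolin/WIP protein that Vrp1 encodes, or SCAR (WAVE), which works inside a complex with Abi, Hem, Cyfip and HSPC300 and is switched on by Rac GTPases. In flies, Vrp1 and WASp act together in the actin foci of fusing myoblasts, and SCAR and Arp2/3 drive the lamellipodia of spreading blood cells and cell lines. Upd is a secreted ligand of the JAK/STAT pathway: its receptor is Domeless, the associated kinase is Hopscotch, and Stat92E encodes the transcription factor at the end of the chain.

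Gene totals were 9142736 and 30352948 counts in wild-type cells with upd, 8285533 and 28465332 in wild-type control media, 21600752 and 22948539 in mutant cells with upd, and 20132421 and 15146225 in mutant control media. Replicate 1 of both wild-type groups was shallow and replicate 2 deep, and the share of mitochondrially encoded counts ran with it: 22.1% and 20.2% in the shallow libraries with upd and in control media, against 12.8% and 13.95% in the deep ones. Replicate number did not follow depth among mutant libraries, whose share was 19.07% and 17.01% with upd, against 15.02% and 15.06% in control media. Log2 ratios within each depth are therefore given beside the pooled values for wild-type cells. Stat92E transcripts were present in the mutant line at 110.8 and 121.4 CPM (counts scaled to TMM-normalised library size) with upd and at 102.9 and 113.6 CPM in control media. Wild-type cells had 157.25 and 160.0 CPM with upd and 161.07 and 177.55 CPM in control media. The log2 difference, mutant minus wild type, was -0.65 ± 0.14 in control media (adjusted p = 0.0253 in edgeR). With upd it was -0.45 ± 0.14 (adjusted p = 0.0801 in edgeR). Socs36E, the feedback inhibitor of the pathway, had 926.8 and 1006.9 CPM in wild-type cells with upd, against 286.7 and 207.9 CPM in wild-type control media, and 39.8 and 98.0 CPM in mutant cells with upd, against 32.4 and 49.9 CPM in mutant control media. In wild-type cells the log2 difference of Socs36E was 1.97 ± 0.39, which did not pass in edgeR (adjusted p = 0.722). With the replicate number as a term within each line it was 1.99 ± 0.13 and passed in edgeR (adjusted p = 1.46e-09). In mutant cells it was 0.75 ± 0.39 without that term and did not pass in edgeR either (adjusted p = 0.992). With the term it was 0.65 ± 0.14 there and passed (adjusted p = 0.0079). Of 10 blood cell markers, NimC1, eater and He lay under 1 CPM in every group, and the summed level of the list was 836.3 to 892.7 CPM in wild-type cells with upd, 732.7 to 831.8 CPM in wild-type control media, 755.7 to 769.5 CPM in mutant cells with upd and 789.8 to 807.0 CPM in mutant control media. Single blood cell markers went in different directions behind these sums. In mutant against wild-type control media, log2 differences ran from -4.34 to 0.84 over the 7 tested. There edgeR called 1 of the 7 higher and 2 lower, against 3.27% and 5.7% of all genes. Markers under 1 CPM in both libraries numbered 3 in each wild-type group, 4 in mutant control media and 5 in mutant cells with upd. A further 13 markers, of other blood cell classes (lz, PPO1, PPO2, PPO3 and atilla) and of other tissues, summed to between 58.2 and 78.7 CPM in every library. Per gene length, PPO3 and PPO2 had the highest mean levels of the 13. The part of these shifts in the results below was not tested.

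Vrp1 (FBgn0243516, chromosome arm 2R, 22106107 to 22122562 on dm6, minus strand) had 233.2 and 296.0 CPM in wild-type cells with upd, against 65.4 and 81.1 CPM in wild-type control media. Both libraries with upd lay far above both controls. The fitted log2 difference was 1.85 ± 0.20 (SE, n = 2 per group), a 3.61-fold higher level, and the ratio was alike at both depths, with log2 values of 1.84 between the shallow and 1.87 between the deep libraries. Leaving out single libraries gave 1.67 to 2.02. These values chose the gene and carry no test. In bulk RNA, more or fewer cells that transcribe a gene cannot be told apart from more or less RNA per cell.

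The transcribed region of Vrp1 overlaps 3 genes on the opposite strand, and the strand setting of the counting is not given in the sources used here. The largest counts among them were those of mei-S332, which encodes the shugoshin that guards cohesin at centromeres and shares 462 bases with Vrp1. It had 7.27 and 12.7 CPM in wild-type cells with upd, against 10.9 and 13.3 CPM in wild-type control media, and 17.3 and 15.5 CPM in mutant cells with upd, against 15.1 and 13.5 CPM in mutant control media. CG30281 ran in the direction of Vrp1 at low counts, with no test, and had 19 and 40 counts (2.30 and 1.28 CPM) in wild-type cells with upd, against 10 and 20 counts (1.26 and 0.66 CPM) in wild-type control media, and 3 and 0 counts in mutant cells with upd, against 1 and 0 in mutant control media. CG30280 held 0 to 6 counts per library. Whether reads were shared between these genes and Vrp1 was not tested. SCAR shares 191 bases with piwi, on the opposite strand, which had between 17 and 309 counts.

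**Figure D1:**
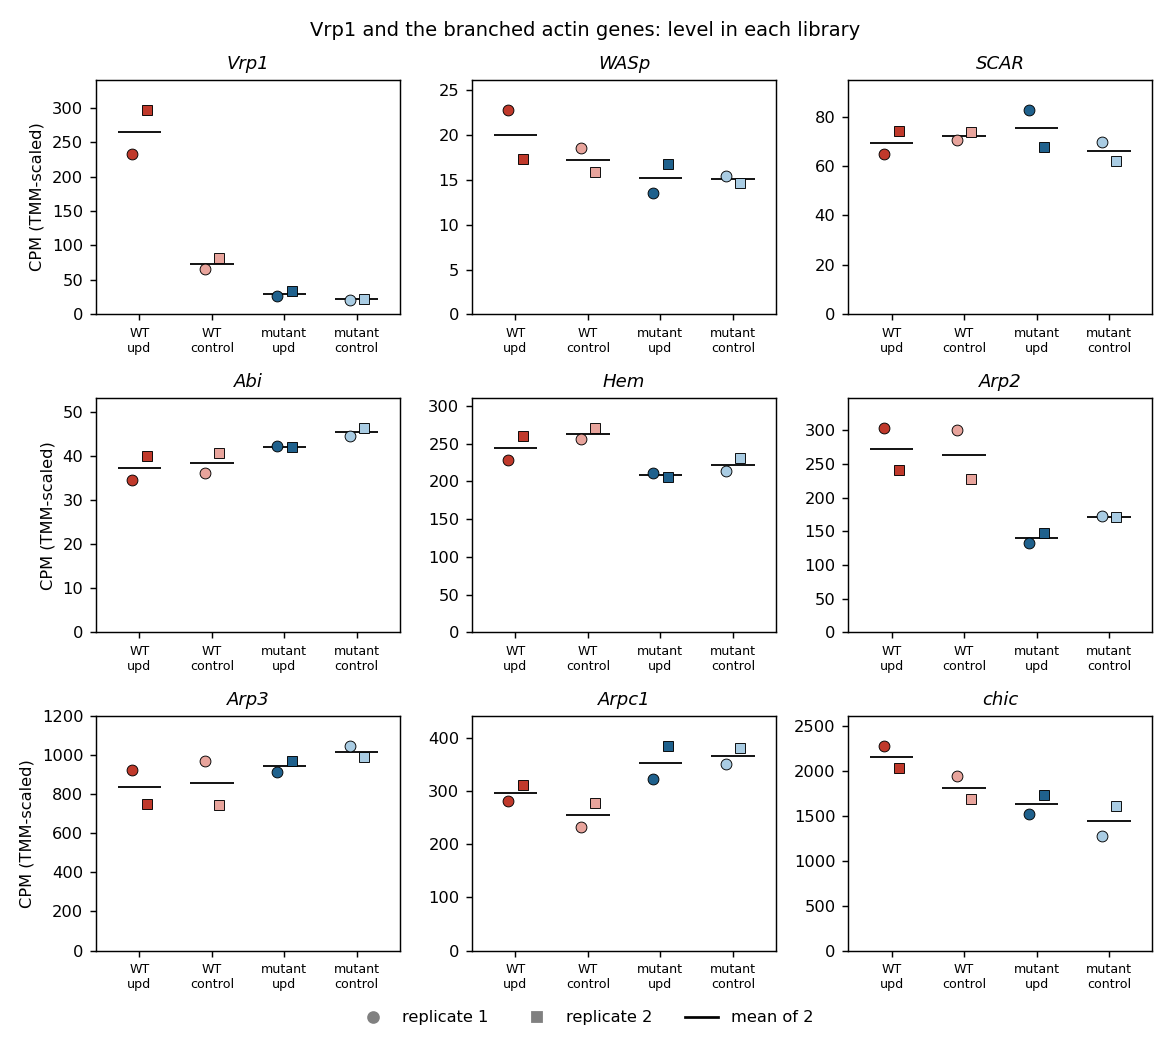
Level of each of the 9 genes in every library, in CPM (counts scaled to TMM-normalised library size) on linear axes that start at 0. Circles are replicate 1 (shallow in wild-type cells), squares replicate 2, and bars the mean of 2 libraries. Vrp1 stands at 233.2 and 296.0 CPM in wild-type cells with upd and at 21.4 to 81.1 CPM in the other groups, while Arp2 and Arp3 in wild-type cells split by replicate number rather than by medium.

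None of the 8 partners of Vrp1 passed in wild-type cells after upd in the fit of all 8 libraries; chic passed in 1 alternative, given below. In the edgeR quasi-likelihood test over all 8126 genes with Benjamini-Hochberg adjustment and a threshold of 0.05, 0 of 8 were called, 0 had an unadjusted p under 0.05, and DESeq2 and limma each called 0. In the same test 0% of all genes passed and 148 had an unadjusted p under 0.05, while DESeq2 called 0.123% and limma 0%, so a count of 0 among 8 is the background. The log2 differences of the 8 partners had a median of 0.01, against 0.00 over all genes tested, with 4 above 0 and 4 below. Across their 95% intervals the highest upper limit was 0.72, a 1.65-fold higher level, for WASp, and the lowest lower limit was -0.45, a 1.36-fold lower level, for Arp3. Changes within these intervals are compatible with the data.

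WASp (FBgn0024273, arm 3R, 28824506 to 28832024), the nucleation-promoting factor that Vrp1 binds, had 22.8 and 17.3 CPM with upd, against 18.6 and 15.9 CPM in control media. The groups overlapped. The log2 difference was 0.22 ± 0.22 (SE, n = 2 per group), with 0.29 between shallow and 0.13 between deep libraries, and a 95% interval of -0.29 to 0.72. WASp was the least counted of the 9 genes, with 147 to 541 counts per library.

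The WAVE complex genes stayed within their spread. SCAR (FBgn0041781, arm 2L, 10976772 to 10982395), the activator itself, had 64.7 and 74.0 CPM with upd, against 70.4 and 73.7 CPM in control media. Abi (FBgn0020510, arm 3R, 14119262 to 14122420), the adaptor that links the complex to Abl, had 34.5 and 40.1 CPM with upd, against 36.2 and 40.9 CPM in control media. Hem (FBgn0011771, arm 3L, 22284354 to 22288195), the Nap1 subunit that pairs with Cyfip, had 227.6 and 260.0 CPM with upd, against 255.4 and 270.0 CPM in control media. In all 3 genes the groups overlapped. The log2 differences were -0.05 ± 0.16 for SCAR, -0.05 ± 0.16 for Abi and -0.11 ± 0.14 for Hem, and Hem was the lowest of the 8 partners at -0.17 between shallow and -0.05 between deep libraries.

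Among the Arp2/3 genes, the values of the actin-related proteins followed depth more than medium. Arp2 (FBgn0011742, chromosome X, 16548290 to 16553968) had 302.7 CPM with upd and 299.6 CPM in control media in the shallow libraries, and 240.6 CPM with upd and 227.7 CPM in control media in the deep ones. Arp3 (FBgn0262716, arm 3L, 8113407 to 8115902) likewise had 923.7 CPM with upd and 971.4 CPM in control media in the shallow pair, and 751.7 and 742.7 CPM in the deep pair. In both genes the step between depths was wider than that between media. The log2 differences with upd were 0.04 ± 0.18 for Arp2 and -0.03 ± 0.18 for Arp3. Arpc1 (FBgn0001961, arm 2L, 13827941 to 13829741), the beta-propeller subunit of the complex, had 281.1 and 311.6 CPM with upd, against 232.1 and 278.6 CPM in control media. Its groups did not overlap, and its log2 difference was 0.21 ± 0.16, with 0.28 between shallow and 0.16 between deep libraries.

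chic (FBgn0000308, arm 2L, 5972115 to 5981018) encodes profilin, which binds actin monomers and feeds them to growing ends. It had 2269.9 and 2033.5 CPM with upd, against 1937.5 and 1688.8 CPM in control media. Its groups did not overlap either, and its log2 difference of 0.25 ± 0.18 was the highest of the 8 partners, with 0.23 between shallow and 0.27 between deep libraries. Arpc1 and chic were the 2 of 8 partners whose libraries with upd all lay above the controls, and 0 of 8 had them all below. Over all genes tested, 12.1% lay wholly above and 12.3% wholly below.

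A fit with the replicate number as a term within each line takes out the difference between the shallow and the deep wild-type libraries, and the errors in wild-type cells were smaller in it. In wild-type cells it called 1.37% of all genes (1.22% higher and 0.148% lower with upd) and 0 of the 8 partners. The log2 difference was 0.25 ± 0.09 for chic, with an adjusted p of 0.303 in edgeR, and 0.22 ± 0.09 for Arpc1, with an adjusted p of 0.398. These were the 2 partners of 8 with an unadjusted p under 0.05, where 783 of all 8126 genes had one. WASp stood at 0.20 ± 0.16, with an adjusted p of 0.783. When the 4 wild-type libraries were fitted alone with that term, chic passed at 0.24 ± 0.08 (adjusted p = 0.0436), where 4.36% of all genes did, and it was the 1 partner of 8 called. The value of Vrp1 in the fit of all libraries with the term was 1.85 ± 0.10, given as a description.

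**Figure D2:**
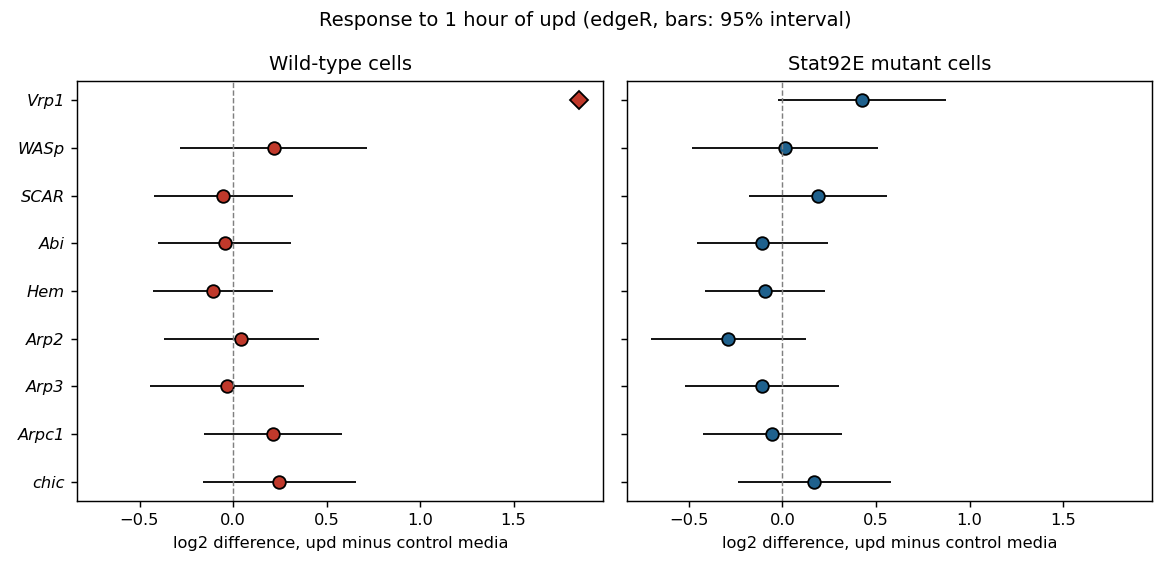
Log2 difference between upd and control media for the 9 genes in wild-type cells (left) and Stat92E mutant cells (right), from edgeR with 2 libraries per group; bars are 95% intervals, and the diamond without a bar is Vrp1 in the contrast that chose it. In wild-type cells Vrp1 stands at 1.85 and the 8 partners between -0.11 and 0.25. In mutant cells all 9 intervals include 0.

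In the mutant line upd made no difference that passed in any of the 9 genes in the fit of group means, and Vrp1 was low with and without it. Vrp1 had 26.2 and 33.4 CPM in mutant cells with upd, against 21.4 and 23.0 CPM in mutant control media. The libraries with upd both lay above the controls, which 18% of all genes also did. The log2 difference was 0.43 ± 0.20 (SE, n = 2 per group; 95% interval -0.02 to 0.87), a 1.34-fold higher level, with an adjusted p of 0.992 in edgeR, and leaving out single libraries gave 0.24 to 0.59. Between mutant libraries of the same replicate number the log2 ratios were 0.29 and 0.54. With the replicate number as a term within each line, Vrp1 passed at 0.42 ± 0.11 (adjusted p = 0.0296), where 5.75% of all genes did (3.85% higher and 1.9% lower), and none of the 8 partners passed. When the 4 mutant libraries were fitted alone with that term it did not pass (adjusted p = 0.0845). The fit of group means called 0% of all genes in this contrast, where 266 had an unadjusted p under 0.05, and DESeq2 called 0.0246% of all genes, limma 0%, and both 0 of the 9.

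The 8 partners in mutant cells had a median log2 difference of -0.07, against 0.00 over all genes, with 0 of 8 called, 0 at an unadjusted p under 0.05, and 0 called by DESeq2 and limma. Arp2 was the lowest, with 133.5 and 148.0 CPM with upd, against 172.5 and 171.6 CPM in control media, a log2 difference of -0.29 ± 0.18. SCAR was the highest, with 82.5 and 67.8 CPM with upd, against 69.7 and 62.1 CPM in control media, a log2 difference of 0.19 ± 0.16. Arp2, Arp3, Abi and Hem lay wholly below their controls, 4 of 8 partners where 19% of all genes did so, by log2 differences between -0.29 and -0.09. The share of mitochondrially encoded counts was higher in the same libraries with upd, as given above, and its part in these values was not tested. WASp had 13.6 and 16.8 CPM with upd, against 15.5 and 14.6 CPM in control media.

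The difference between the upd responses of the lines (wild-type minus mutant log2 response) was 1.43 ± 0.28 for Vrp1, given as a description because it holds the contrast that chose the gene. For the partners it lay between -0.24 ± 0.23 for SCAR and 0.33 ± 0.26 for Arp2. The interaction test in edgeR called 0 of the 8, as it called 0% of all genes, with 0 partners and 88 of all genes at an unadjusted p under 0.05; DESeq2 called 0.0123% of all genes, limma 0%, and both 0 of the 8. The median over the partners was 0.08, against 0.00 over all genes. The 95% intervals of the single partners ran from -0.77 to 0.28 for SCAR up to -0.25 to 0.92 for Arp2, and that of Hem was -0.47 to 0.44.

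Without added ligand, Vrp1 was already lower in the mutant line. It had 21.4 and 23.0 CPM in mutant control media, against 65.4 and 81.1 CPM in wild-type control media, and the groups were far apart. The log2 difference was -1.73 ± 0.20 (SE, n = 2 per group), a 3.31-fold lower level, with an adjusted p of 0.00148 in edgeR. Leaving out single libraries gave -1.88 to -1.56, with adjusted p-values of 0.00158 to 0.0184, and the value was -1.88 against the deep and -1.56 against the shallow wild-type library alone. This contrast shares the wild-type control libraries with the one that chose Vrp1, but not the libraries with upd. In the same test 8.97% of all genes passed (3.27% higher and 5.7% lower in the mutant line). With upd, the level was 26.2 and 33.4 CPM in mutant cells, against 233.2 and 296.0 CPM in wild-type cells, a log2 difference of -3.15 ± 0.21 (8.89-fold lower) that is a description for the same reason as above.

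The partners differed less between the lines, and Arp2 was the one that passed in the edgeR fit of group means. In control media 0 of the 8 were called by edgeR. Arp2 and Arpc1 had an unadjusted p under 0.05, as did 1987 of all 8126 genes. DESeq2 called these 2, along with 14% of all genes. Limma called 0 of the 8 and 6.97% of all genes. Arp2 had 172.5 and 171.6 CPM in mutant control media, against 299.6 and 227.7 CPM in wild-type control media, a log2 difference of -0.62 ± 0.18 with an adjusted p of 0.0746. Arpc1 lay on the other side, with 350.8 and 381.9 CPM in mutant control media, against 232.1 and 278.6 CPM in wild-type control media, a log2 difference of 0.52 ± 0.16 with an adjusted p of 0.0882. All 8 partners had groups that did not overlap in this medium: Arp3, Arpc1 and Abi higher, and WASp, SCAR, Arp2, Hem and chic lower. Over all genes 28.2% lay wholly higher and 28.1% wholly lower, so such a split is common between these lines. The median log2 difference of the 8 was -0.16, against 0.01 over all genes.

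With upd, edgeR called 1 of the 8 partners lower and 0 higher in the mutant line, against 6.53% and 3.99% of all genes. The gene was Arp2, with 133.5 and 148.0 CPM in mutant cells, against 302.7 and 240.6 CPM in wild-type cells. Its log2 difference was -0.95 ± 0.18, a 1.93-fold lower level, with an adjusted p of 0.0138 over all genes, and DESeq2 and limma, which called 15.4% and 7.93% of all genes, called it as well. The call was lost when replicate 1 of the wild-type upd group was left out, the shallow library with the higher Arp2 level (-0.78, adjusted p = 0.0673), and when replicate 1 of the mutant upd group was left out (-0.88, adjusted p = 0.0783). Arpc1 had 321.9 and 384.0 CPM in mutant cells, against 281.1 and 311.6 CPM in wild-type cells, a log2 difference of 0.25 ± 0.16. chic had 1520.6 and 1730.1 CPM in mutant cells, against 2269.9 and 2033.5 CPM in wild-type cells, a log2 difference of -0.40 ± 0.18 with an adjusted p of 0.195. WASp stood at -0.39 ± 0.22 (adjusted p = 0.302), and the others lay between -0.23 and 0.17. Arpc1 and Abi lay wholly above wild-type cells, and WASp, Arp2, Hem and chic wholly below, where 26.8% and 26.4% of all genes did. The edgeR contrasts between the lines in the 2 media share no library but rest on 1 estimate of the spread.

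**Figure D3:**
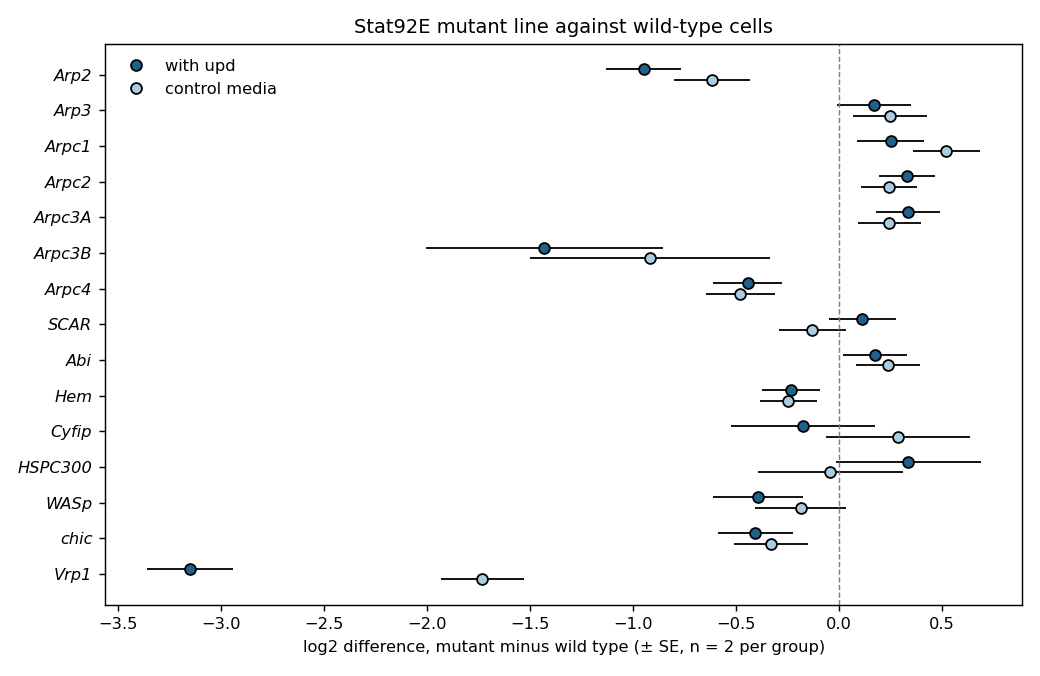
Log2 difference between the Stat92E mutant line and wild-type cells with upd (dark) and in control media (light), mutant minus wild type, for the 9 genes and for 4 other Arp2/3 and 2 other WAVE complex subunits; bars are ± SE with 2 libraries per group. Vrp1 lies at -3.15 and -1.73, Arp2 at -0.95 and -0.62, and most other subunits of the complexes between -0.5 and 0.5.

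The other subunits of the same complexes also went in mixed directions. Of 5 other Arp2/3 subunits tested (Arpc2, Arpc3A, Arpc3B, Arpc4 and Arpc5), 0 passed in any of the 5 comparisons in the fit of group means. That fit called 0% of all genes for upd in either line and for the difference of responses. Between the lines it called 8.97% in control media and 10.5% with upd, so 0 of 5 is near the background. After upd in wild-type cells their median log2 difference was 0.01. Between the lines with upd, Arpc2 (0.33) and Arpc3A (0.34) were on the higher side, and Arpc4 at -0.44 ± 0.17 (adjusted p = 0.132 in edgeR) and Arpc3B at -1.43 ± 0.58 on the lower side. Arpc3B, the second copy of the ARPC3 subunit gene, was scarce, with 2.32 and 3.76 CPM in mutant cells with upd, against 10.9 and 5.86 CPM in wild-type cells with upd. The WAVE subunits Cyfip and HSPC300 did not pass in that fit either. With the replicate number as a term within each line, HSPC300 was higher with upd in mutant cells (0.44 ± 0.13, adjusted p = 0.0465 in edgeR). There 5.75% of all genes passed. HSPC300 had 139.9 and 89.4 CPM in mutant cells with upd, against 78.5 and 86.7 CPM in mutant control media, so the rise lay mostly in replicate 1. Without the term, leaving out single libraries gave 0.11 to 0.76. The calls of the fit with the term between the lines, which leave the spread between replicates out of the error, are given among the processing alternatives.

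Levels can be compared between genes only per length, for which the authors' RPKM values (reads scaled to gene length and library size) were used. Over the 8 libraries chic was the highest, at 570 to 905 RPKM, followed by Arp3 at 353 to 491 and Arpc1 at 110 to 213 RPKM, with no overlap between these 3. Arp2 (43.1 to 99.6 RPKM) and Hem (44.5 to 69.3 RPKM) overlapped, as did SCAR (16.0 to 22.9 RPKM) and Abi (11.1 to 18.7 RPKM). WASp was the lowest partner, at 3.88 to 6.27 RPKM. The subunits of the Arp2/3 complex, which enter it in equal numbers, therefore differed widely at the transcript level, with means over all libraries of 130 RPKM for Arpc2, 125 for Arpc3A, 118 for Arpc4 and 37.4 for Arpc5.

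Vrp1 was the gene whose place in this order depended on the group. It had 44.7 and 68.6 RPKM in wild-type cells with upd, against 13.4 and 19.6 RPKM in wild-type control media, and 5.204 and 7.265 RPKM in mutant cells with upd, against 4.96 and 5.52 RPKM in mutant control media. The ratio of Vrp1 to WASp RPKM, the levels of the 2 binding partners, was 7.12 and 11.9 in wild-type cells with upd, against 2.45 and 3.56 in wild-type control media. In the mutant line it was 1.34 and 1.38 with upd, against 0.96 and 1.09 in control media. In wild-type cells with upd Vrp1 thus ranked near Hem (46.4 and 64.1 RPKM) and below Arp2 (94.1 and 90.5 RPKM). In the mutant line it ranked near WASp. The wild-type ratios contain the response that chose Vrp1 and are given as a description.

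**Figure D4:**
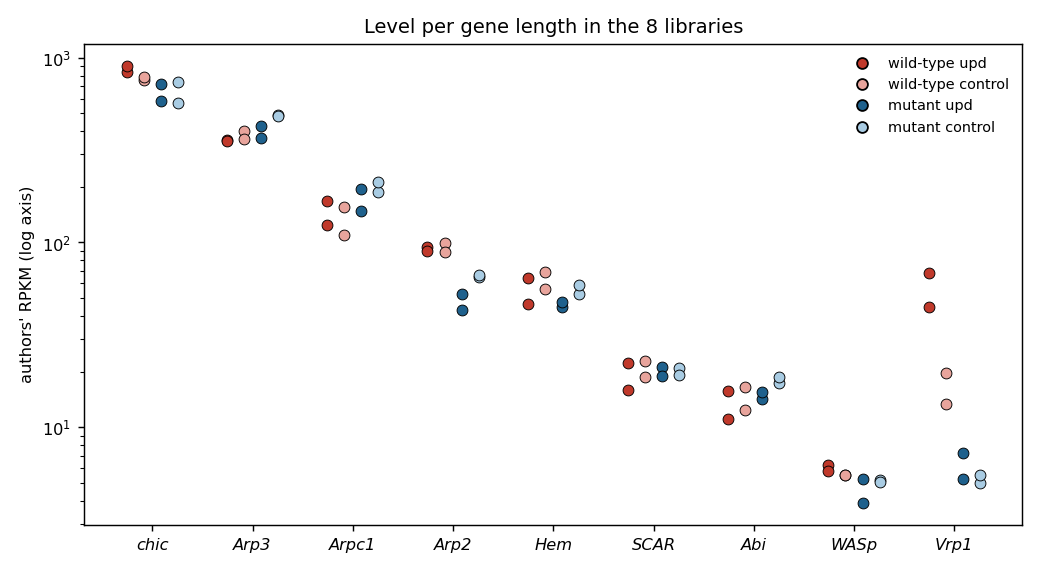
RPKM of the 9 genes in each of the 8 libraries on a log axis, by group, with genes ordered by level and Vrp1 last. The 8 partners keep to narrow bands, from 3.88 to 6.27 RPKM for WASp up to 570 to 905 RPKM for chic, while Vrp1 runs from 4.96 to 68.6 RPKM.

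The wider actin machinery was read from 8 lists of 60 symbols, covering activators and adaptors of WASp and SCAR, the other subunits, the WASH complex, myoblast fusion genes, capping and turnover factors, and formins. Of these, 58 were in the tables and 53 were tested. After upd in wild-type cells edgeR called 0 of 53, and 3 had an unadjusted p under 0.05; DESeq2 and limma called 0. Over all genes the edgeR test called 0%, with 148 of 8126 at an unadjusted p under 0.05. The median log2 difference was 0.02, with 31 above 0 and 22 below. With the replicate number as a term within each line, 3 of the 53 rose in wild-type cells and 0 fell, against 1.22% and 0.148% of all genes: blow, Whamy and Abl. The same fit called 2 of the 53 higher (Abl and HSPC300) and 1 lower (mbc, which encodes a guanine nucleotide exchange factor for Rac) with upd in mutant cells, against 3.85% and 1.9% of all genes. For the difference between the responses of the lines it called 0 of the 53, against 0.406% of all genes, so a count of 0 is the background.

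Blow is an adaptor protein that competes with WASp for Vrp1 in fly myoblasts. It had 154.9 and 169.4 CPM in wild-type cells with upd, against 101.8 and 91.6 CPM in wild-type control media, and 31.4 and 50.2 CPM in mutant cells with upd, against 28.7 and 44.8 CPM in mutant control media. The wild-type groups did not overlap, and the log2 difference with the replicate term was 0.76 ± 0.10 (adjusted p = 1.18e-04 in edgeR). Within depths it was 0.61 and 0.89. Whamy, a relative of WASp that takes part in myoblast fusion, had 48.0 and 41.5 CPM in wild-type cells with upd, against 23.6 and 27.9 CPM in wild-type control media, a log2 difference of 0.77 ± 0.15 in that fit (adjusted p = 0.00426). Abl, a tyrosine kinase that binds Abi and the SCAR complex, had 310.4 and 236.7 CPM in wild-type cells with upd, against 217.6 and 152.8 CPM in wild-type control media, a log2 difference of 0.57 ± 0.10 (adjusted p = 0.00144). Abl also rose in the mutant line in that fit, by 0.47 ± 0.10 (adjusted p = 0.00945), with 84.98 and 116.8 CPM in mutant cells with upd, against 70.1 and 74.4 CPM in mutant control media. Whamy had 9.83 and 12.5 CPM in mutant cells with upd, against 8.18 and 11.6 CPM in mutant control media. Without the replicate term the wild-type values were 0.75 ± 0.26, 0.79 ± 0.23 and 0.56 ± 0.23 for blow, Whamy and Abl, each with an adjusted p of 1.

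**Figure D5:**
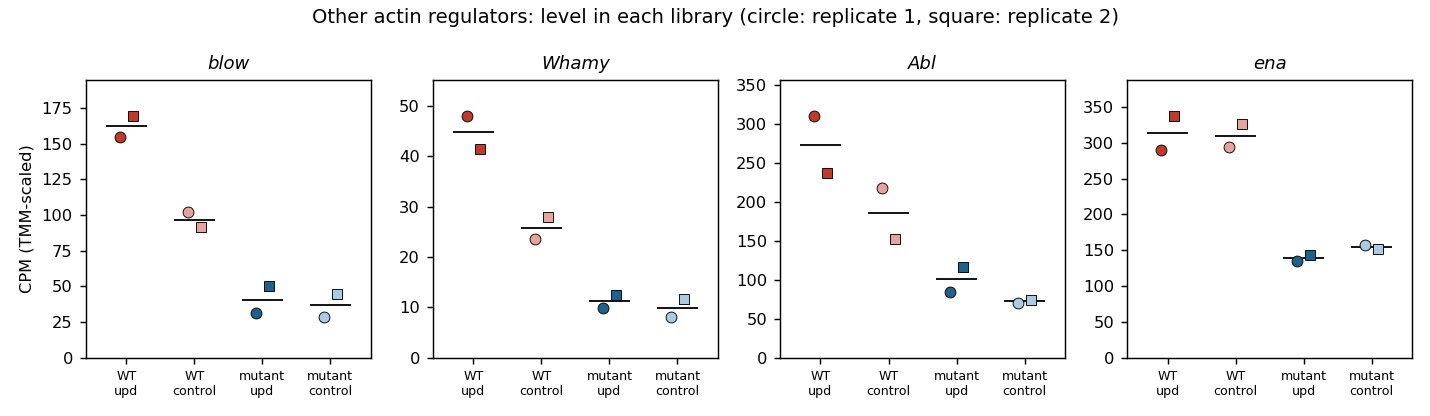
Level of blow, Whamy, Abl and ena in every library, in CPM (counts scaled to TMM-normalised library size) on linear axes that start at 0; circles are replicate 1, squares replicate 2 and bars the mean of 2 libraries. Blow, Whamy and Abl in wild-type cells with upd lie wholly above the wild-type controls, and ena is lower in all 4 mutant libraries than in all 4 wild-type ones.

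Between the lines more of these regulators were called lower than higher in the mutant line. With upd, edgeR called 2 of the 53 higher and 9 lower in mutant cells, against 3.99% and 6.53% of all genes. In control media it called 2 higher and 8 lower, against 3.27% and 5.7% of all genes. Ena, which elongates unbranched filaments, was the one that passed in both media without any single library. It had 135.5 and 143.8 CPM in mutant cells with upd, against 290.5 and 337.4 CPM in wild-type cells with upd (-1.17 ± 0.15, adjusted p = 0.00174). In control media it had 158.0 and 152.2 CPM in the mutant line, against 293.6 and 326.2 CPM in wild-type control media (-0.999 ± 0.15, adjusted p = 0.00438). Blow at -1.99 ± 0.27, Whamy at -2.00 ± 0.23, Abl at -1.44 ± 0.23 and the gelsolin gene Gel, whose product severs filaments, at -2.89 ± 0.49 also kept their calls with upd without any single library.

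The remaining calls with upd were formins and a Rac GTPase, and each was lost without at least 1 library. They were the formin genes DAAM (2.24 ± 0.39) and dia (0.71 ± 0.18) on the higher side, and capu (-0.84 ± 0.16), Frl (-0.66 ± 0.14), Fhos (-1.26 ± 0.34) and the Rac gene Rac2 (-0.78 ± 0.16) on the lower side. When replicate 2 of the wild-type upd group was left out 5 of the 11 calls remained, and when replicate 1 of the mutant upd group was left out 6. In control media the called genes were DAAM (2.15 ± 0.38) and the Rac-like gene Mtl (0.75 ± 0.18) on the higher side, and Abl, blow, Whamy, Gel, ena, Rac2, Frl and Fhos on the lower side. All of these but ena were lost without at least 1 library. There, 2 of the 10 calls were left without replicate 2 of wild-type control media or without replicate 1 of mutant control media, and 6 were left without either of the other control libraries.

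Genes whose level across the 8 libraries was most like that of Vrp1 were ranked by Pearson's r of log2 CPM among the genes tested. The 6 highest were CG10962 (r = 0.98), Socs36E (0.98), spri (0.98), Pino (0.98), Drat (0.98) and Ets21C (0.97). Spri encodes a regulator of Rab5, and Ets21C a transcription factor of the ETS family. Whamy stood at 0.97, blow at 0.96 and Abl at 0.93. Of the partners chic was the most like Vrp1, at 0.86 in rank 371, followed by Arp2 (0.77), WASp (0.73) and Hem (0.60). SCAR was at 0.00, and Arpc1 (-0.53), Arp3 (-0.66) and Abi (-0.73) ran the other way. The libraries fall into the groups of the design and share their depths and lines, so these values rank genes and carry no test. For example, Pino had 248.6 and 259.1 CPM in wild-type cells with upd, against 131.9 and 97.8 CPM in wild-type control media, and 37.6 and 42.6 CPM in mutant cells with upd, against 34.2 and 36.2 CPM in mutant control media.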

How the data were processed

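Each library's table, as deposited by the authors, holds a raw count, a gene length and an RPKM value for 13932 FlyBase identifiers. The deposited count column has whole numbers. The RPKM values were scaled by the authors to a read number above the gene total, which is 85.2% to 90.6% of it. Trimmomatic 0.36, STAR 2.5.2b and dm6 are named in the submitters' processing notes; the read counter with its annotation and strand setting is not stated there or in the labels. Symbols and coordinates came from Ensembl release 115 (13852 identifiers matched, 80 not).

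Counts were tested with edgeR 4.0.16 in R 4.3.3 (TMM, filterByExpr, quasi-likelihood F-test, 4 group means, all 8 libraries in 1 fit, 4 residual degrees of freedom), two-sided, with Benjamini-Hochberg adjustment over 8126 genes and a threshold of 0.05. Errors are standard errors of the fitted log2 difference. Intervals are at 95%. A further fit has the replicate number as a term within each line and 2 residual degrees of freedom; in wild-type cells this number separates the shallow from the deep libraries, in the mutant line it does not follow depth, and no label says what it marks. Alternatives were DESeq2 1.42.0, limma 3.58.1 on log2(RPKM + 1) or log2(RPKM + 0.1), other scalings, filters and blocks, and leaving out each library. The code was tested on simulated data with known changes.

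The genes and lists were chosen with earlier results of these data known. Genes named outside the 9 are pathway checks, list members that passed or had the lowest p (up to 4 a list), the 6 most like Vrp1, and genes overlapping the 9. Arpc5 is named to complete its complex, and Pino and mbc were named after their values were seen.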

Additional observations from a re-analysis of the deposited data

How the results depend on the processing

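The lower level of Vrp1 in mutant control media kept its call in every alternative tried. The response of Vrp1 to upd in mutant cells passed in 1 alternative, with the replicate block within each genotype (0.415 ± 0.111, adjusted p = 0.0296 in edgeR), where 5.75% of all genes passed. Counts of the other 8 genes called moved as follows. In wild-type cells with upd, 1 was called (chic) when the 4 wild-type libraries alone were fitted with the replicate block. Between the lines in control media, 2 were called by DESeq2, where 14% of all genes were. The replicate block within genotype called 3 there (Arpc1 higher, Arp2 and chic lower). Without a filter 1 was called, and with the block over both genotypes 2 were. The share of all genes called was not counted for these 2 settings, so their counts are not a result about the 8 genes. With upd, 3 were called between the lines with the block within genotype, and 0 to 1 when single libraries were left out. Between the lines the block within genotype sets replicate 1 against replicate 1, so replicate spread is not in its error, and it called 35.6% (control media) and 34.4% (upd) of all genes. Of 5 other Arp2/3 subunits it called 3 in control media (Arpc3A higher, Arpc3B and Arpc4 lower) and 4 with upd (Arpc2 also higher), and of the 2 other WAVE subunits Cyfip in control media. Same-numbered libraries deviated together within the wild-type (correlation 0.485) and the mutant line (0.514) but not across lines (-0.0514 and 0.0383), and 2 pairs a line cannot settle whether the numbers pair the libraries. Some small differences turned direction. With limma on log2(RPKM + 1) and log2(RPKM + 0.1), these were Arp2 in wild-type cells (-0.0307 and -0.031), chic in mutant cells (-0.00473 in both), WASp in mutant cells (-0.145 and -0.174) and the difference of responses of Hem (0.0846 and 0.0863). This scale moves the median of all genes in mutant cells by -0.139 and -0.178. With the replicate block within genotype, SCAR in control media stood at 0.0498. Leaving out single libraries gave, in wild-type cells, ranges of -0.211 to 0.168 for Arp3, -0.14 to 0.248 for Arp2, -0.162 to 0.0631 for Abi and -0.157 to 0.0474 for SCAR. For the difference of responses it gave -0.0526 to 0.173 for Abi, -0.0958 to 0.237 for chic, -0.113 to 0.089 for Hem and -0.1 to 0.279 for Arp3. In mutant cells it gave -0.187 to 0.0656 for Arpc1 and -0.153 to 0.155 for WASp, and between the lines with upd -0.038 to 0.246 for SCAR. The causes were not tested. The next counts leave out the tested Vrp1 values and the counts of genes called. Of the other single-gene values under all alternatives, 737 stayed the same. They kept their direction and their side of the threshold, or, in the untested Vrp1 contrasts, shifted by less than the replicate spread. A further 32 turned direction, 11 newly passed and 2 lost a call (Arp2, as given above). The list of genes most like Vrp1 moved: 2 of the 6 by Pearson's r were among the 6 by Spearman's rho. The promoter motif search was not run. With 2 libraries a group, intervals are wide, and a difference that missed the threshold is not shown to be absent.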
